A study of Mus musculus with 18 samples.

Results

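Transcripts of 10 integrin genes were followed in cultured mouse macrophages: Itgal, Itgam, Itgax, Itgb2, Itgb1, Itga4, Itga5, Itga6, Itgav and Itgb5. The genes were chosen by name, as the rows of the deposited count table that carry these symbols, and all 10 of 10 were found among 30530 genes. All 10 also passed the filter on low counts that left 12741 genes for testing.

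Bone-marrow-derived macrophages are phagocytes grown from marrow in culture, and the study varied their exposure to 25-hydroxycholesterol (25HC), an oxysterol made by the enzyme that Ch25h encodes. Cells of C57BL/6 mice (B6) were either untreated or given 25HC at 5 µM for 18 hours, and each arm was taken at rest or after Pam3CSK4 (PAM3) at 300 ng/mL, a lipopeptide ligand of Toll-like receptors. Cells of Ch25h-/- mice, never given 25HC, were taken at rest and after PAM3. Each of the 6 groups had 3 libraries, numbered by mouse. The stimulation time in the labels is 18 for PAM3 and 0 at rest, with no unit, so PAM3 and any difference in culture time cannot be told apart. The labels do not give the age of the mice or how the deletion was made.

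Integrins are cell-surface receptors built from 1 alpha and 1 beta subunit, and they join matrix proteins or counter-receptors on other cells to the actin cytoskeleton inside. The beta2 subunit (Itgb2, CD18) is restricted to leukocytes and pairs with alphaL (Itgal, forming LFA-1), alphaM (Itgam, forming Mac-1 or complement receptor 3) and alphaX (Itgax, CD11c). The beta1 subunit (Itgb1) pairs with alpha4, alpha5 and alpha6 (Itga4, Itga5 and Itga6), which bind VCAM-1, fibronectin and laminin, and alphaV (Itgav) with beta5 (Itgb5) binds vitronectin. Macrophages use these receptors to adhere, to migrate and to take up opsonised or dying cells.

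Library totals ran from 14.04 M to 150.4 M counts, a 10.7-fold range. At rest Ch25h-/- libraries had 14.04 to 19.19 M counts and untreated B6 libraries 30.75 to 68.55 M. With PAM3 they had 22.26 to 24.12 M and 39.97 to 150.4 M. Genotype and depth thus coincide when Ch25h-/- is compared with untreated B6. The targeted gene fitted the genotype labels: Ch25h had between 0 and 2 counts in each Ch25h-/- library and between 76 and 1031 in each B6 library. Of 12 macrophage markers 11 or 12 had a mean of at least 5 CPM (gene counts scaled to the size of the library) in every group, and their summed level lay between 20701 and 57035 CPM. Summed markers of other cells were low for dendritic cells (1.91 to 7.32 CPM), megakaryocytes (0.305 to 11.8), T and NK cells (0 to 0.483), B cells (0.895 to 23.8), mast cells (0 to 0.206) and stroma (1.03 to 11.4). Osteoclast markers summed to between 57.9 and 369 CPM, mostly Acp5 and Mmp9, which macrophages also express, and endothelial markers to between 1.22 and 98.8 CPM, mostly Vwf. Neutrophil markers summed to between 2.81 and 9.56 CPM in B6 libraries, to 17.6, 89.6 and 30.0 CPM in the Ch25h-/- libraries at rest and to 12.7, 24.5 and 11.3 CPM in those with PAM3. In bulk RNA, fewer cells of a type and less RNA per cell cannot be told apart.

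On the mouse genome (GRCm38, GENCODE M21), the 4 alpha genes that pair with beta2 lie on the plus strand of chromosome 7. Itgal spans 127296260 to 127335138, Itgam 128062640 to 128118491, Itgax 128129547 to 128150657 and Itgad, not a member, 128154376 to 128223816. Itgam ends 11.1 kb before Itgax and Itgax 3.72 kb before Itgad, whereas Itgal and Itgam are 728 kb apart. Itgb2 lies alone on chromosome 10 (77530252 to 77565708, plus strand). Itga6 (71745616 to 71858416), Itga4 (79255426 to 79333123) and Itgav (83724397 to 83806916) share the plus strand of chromosome 2, Itga5 is on the minus strand of chromosome 15 (103344286 to 103366763), Itgb5 on chromosome 16 (33829665 to 33949338, plus strand) and Itgb1 on chromosome 8 (128685654 to 128733200, plus strand). Itga4 overlaps Cerkl on the opposite strand, which reached at most 6.79 CPM in any library, and Itgam overlaps the predicted gene Gm49368 on its own strand, for which there is no row. The values are of whole genes, summed over exons.

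RefSeq promoter sequences on GRCm38.p6 were matched for 7 of the 10 genes, and Itga6, Itgal and Itgb2 had no entry. The 150 bases before the transcription start are printed for 4 genes with different behaviour in these libraries: Itgam and Itgax, which are neighbours that moved apart, Itga5, which rose, and Itgb5, which fell. Capitals mark GAGGAA, the core that the myeloid factor PU.1 binds, or its reverse complement, and TGANTCA, the AP-1 element. Sequences run 5′ to 3′ on the strand of the gene.
Itgam (chr7:128062490-128062639, plus strand): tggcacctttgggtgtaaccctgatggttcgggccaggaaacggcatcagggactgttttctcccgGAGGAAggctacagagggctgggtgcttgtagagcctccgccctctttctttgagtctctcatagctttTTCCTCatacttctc
Itgax (chr7:128129400-128129549, plus strand): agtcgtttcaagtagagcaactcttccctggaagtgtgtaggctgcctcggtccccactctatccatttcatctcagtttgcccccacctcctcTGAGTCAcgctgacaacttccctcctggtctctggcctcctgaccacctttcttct
Itga5 (chr15:103366792-103366941, minus strand): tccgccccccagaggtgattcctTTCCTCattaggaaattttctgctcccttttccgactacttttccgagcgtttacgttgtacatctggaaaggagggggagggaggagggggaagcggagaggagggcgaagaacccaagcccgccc
Itgb5 (chr16:33829515-33829664, plus strand): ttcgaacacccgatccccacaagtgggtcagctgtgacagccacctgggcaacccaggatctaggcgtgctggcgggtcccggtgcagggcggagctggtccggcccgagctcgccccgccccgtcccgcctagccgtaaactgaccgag
Within 250 bases upstream, on both strands, GAGGAA was found in 4 of the 7 genes (Itgam, Itgav, Itgb1 and Itga5) and in 23.3% of 32851 promoters of the same length. TGANTCA was found in 1 of the 7, Itgax, and in 6.75% of all promoters, and no match of either motif overlapped one of the other. Itgam and Itgax, 11.1 kb apart, thus shared neither motif in this window. These matches describe letters only.

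The genes differed widely in how much they varied. From the lowest to the highest group mean the range was 56.4-fold for Itgal, 9.59-fold for Itga5, 7.72-fold for Itga6 and 6.50-fold for Itgb5. It was 3.87-fold for Itga4, 3.04-fold for Itgax and 3.01-fold for Itgam, and only 1.66-fold for Itgb2, 1.48-fold for Itgav and 1.22-fold for Itgb1. The common partner chains beta1 and beta2 thus had a smaller range than each alpha chain except Itgav. Per kilobase of exon, which allows levels to be compared between genes, Itgam was the highest in untreated B6 at rest at 393 ± 13.5 CPM per kb (mean ± SD, n = 3, as below). Itgb2 followed at 342 ± 15.1 and Itgb1 at 193 ± 41.2, then Itgb5 at 70.9 ± 14.5, and Itgal (4.92 ± 1.03) and Itgax (4.75 ± 0.229) were the lowest.

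**Figure D1:**
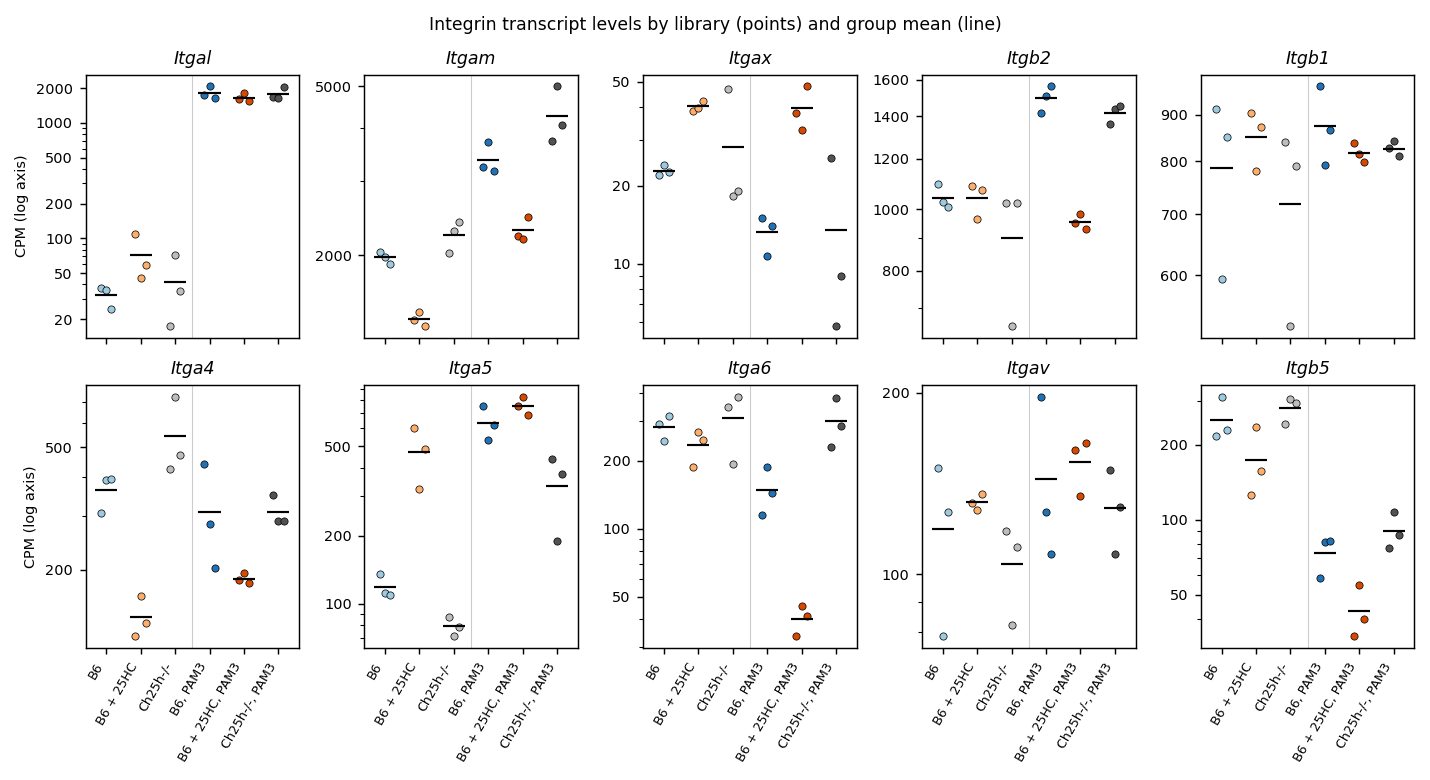
Levels of the 10 genes in CPM (log axis, a separate scale for each gene), 1 point per library and a line at each group mean, with groups at rest left of the grey line and groups with PAM3 right of it. Itgal is at 1546 CPM or more in all PAM3 libraries and at most at 109 CPM at rest, whereas Itgb1 stays between 528 and 967 CPM throughout.

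In untreated B6 cells PAM3 raised Itgal, Itgam and Itgb2 of the beta2 family and the fibronectin receptor chain Itga5, and it lowered Itga6 and Itgb5. The question was how a Toll-like receptor stimulus changes the set of integrin transcripts. The 4 rises and 2 falls compare with 62.1% of all tested genes called in this comparison, 31.3% higher and 30.8% lower, so a call as such was common. The libraries of both groups did not overlap for 7 of the 10 genes, where 63.0% of all genes showed this. The median absolute log2 fold change was 0.78 over the 10 genes and 0.59 over all genes.

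Itgal, the alpha chain of LFA-1, lay at 37.0, 35.4 and 24.6 CPM in replicates 1, 2 and 3 of untreated B6 at rest and at 1745, 2070 and 1652 CPM with PAM3. Every stimulated library was far above every resting one. The mean rose 56.4-fold, from 32.3 ± 6.77 to 1822 ± 219 CPM (log2 fold change 5.82 ± 0.47, the error being the SE). By edgeR's quasi-likelihood test, adjusted after Benjamini and Hochberg over all tested genes as in every edgeR value below, the adjusted p was 1.0e-07. T and NK cell markers, a class of cells rich in LFA-1, summed to at most 0.0783 CPM in these PAM3 libraries, with Cd3e and Cd3g at 0. B cell markers summed to 7.82 to 17.2 CPM in them against 8.31 to 11.6 CPM at rest. Neutrophil markers summed to 4.93 to 9.56 CPM against 5.59 to 8.06 CPM. The part of other cells in the Itgal values was not tested. In 25HC-treated B6 cells Itgal rose with PAM3 from 109, 45.4 and 59.1 to 1624, 1816 and 1546 CPM (4.54 ± 0.44, edgeR adjusted p = 7.6e-07). In Ch25h-/- cells it rose from 17.5, 72.1 and 34.9 to 1687, 1645 and 2052 CPM (5.44 ± 0.46, edgeR adjusted p = 1.9e-07), and the log2 value was 6.10 without resting replicate 2 and 6.16 without replicate 2 of every group. The 3 stimulated groups overlapped one another, and so did the 3 resting groups except 25HC-treated and untreated B6, which did not overlap. Replicate 2 was the highest of the Ch25h-/- libraries at rest for Itgal, and also for the summed neutrophil markers (89.6 CPM), a link that was not tested.

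Itgam, whose product with beta2 is the complement receptor Mac-1, was abundant before stimulation, at 2040, 1984 and 1905 CPM in untreated B6, and stood at 3223, 3689 and 3165 CPM with PAM3. The groups did not overlap, and the mean rose 1.70-fold (log2 fold change 0.77 ± 0.12, edgeR adjusted p = 8.2e-05). It also rose 1.62-fold in 25HC-treated cells (0.69 ± 0.12, edgeR adjusted p = 2.2e-04) and 1.91-fold in Ch25h-/- cells (0.93 ± 0.13, edgeR adjusted p = 1.6e-05). Of 12 macrophage markers 6 were higher and 6 lower with PAM3 in untreated B6 (median log2 fold change 0.03). Their sum, of which Lyz2 and Emr1 made up most with PAM3, went from between 26613 and 33195 to between 43103 and 57035 CPM, and its part in the Itgam values was not tested. Itgb2, the shared beta2 chain, went from 1096, 1026 and 1008 to 1418, 1508 and 1560 CPM in untreated B6. All stimulated libraries were above all resting ones, a rise of 1.43-fold (0.52 ± 0.14, edgeR adjusted p = 0.00450). In Ch25h-/- cells Itgb2 rose from 1022, 656 and 1025 to 1360, 1436 and 1452 CPM (0.65 ± 0.14, edgeR adjusted p = 8.8e-04), the resting replicate 2 being the lowest of all 18 libraries.

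Itgax, the alpha chain known as CD11c, did not follow its neighbour Itgam. Resting untreated B6 libraries held 21.9, 24.0 and 22.5 CPM of it and stimulated ones 15, 10.7 and 14 CPM. All stimulated libraries were below all resting ones, yet the difference missed the threshold (log2 fold change -0.79 ± 0.42, edgeR adjusted p = 0.113). It passed with the animal as a block (-0.80, edgeR adjusted p = 7.2e-04) and with only the compared groups in the fit (edgeR adjusted p = 0.00468). In Ch25h-/- cells Itgax went from 47.1, 18.2 and 19.0 to 25.6, 5.79 and 9.02 CPM, with replicate 1 the highest in both states and the groups overlapping. In 25HC-treated cells its groups overlapped (-0.03 ± 0.41, edgeR adjusted p = 0.963). The fall in Ch25h-/- cells (-1.07 ± 0.43, edgeR adjusted p = 0.0415) was lost without resting replicate 1 (-0.48, adjusted p = 0.322) or stimulated replicate 2 (-0.72, 0.145) or 3 (-0.86, 0.141), and was larger without stimulated replicate 1 (-1.94). It was also lost with only the compared groups in the fit (-1.07, edgeR adjusted p = 0.198), without the filter on low counts (-1.04, 0.0928) and without replicate 2 of every group (-0.94, 0.0811).

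Together these changes altered the make-up of the alpha transcripts that can pair with beta2. In untreated B6 at rest Itgam made up 97.5 ± 0.188% of the summed CPM per kb of Itgal, Itgam, Itgax and Itgad, Itgal 1.22 ± 0.218% and Itgax 1.18 ± 0.0741%. With PAM3 Itgam made up 70.5 ± 0.705% and Itgal 29.2 ± 0.766%, with Itgax at 0.295 ± 0.0724%. In 25HC-treated cells Itgal went from 3.6 ± 1.66% to 35.3 ± 3.23% and in Ch25h-/- cells from 1.36 ± 0.881% to 24.5 ± 3.98%. Itgad had at most 0.0711% on average in any group. The sum of these alpha transcripts relative to Itgb2, both per kb, was 1.18 ± 0.0234 in untreated B6 at rest and 1.94 ± 0.200 with PAM3, 0.885 ± 0.0772 and 2.29 ± 0.100 in 25HC-treated cells, and 1.63 ± 0.495 and 2.42 ± 0.205 in Ch25h-/- cells. The libraries of each arm did not overlap between rest and PAM3 in this ratio, which is given as a description of RNA with no test.

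**Figure D2:**
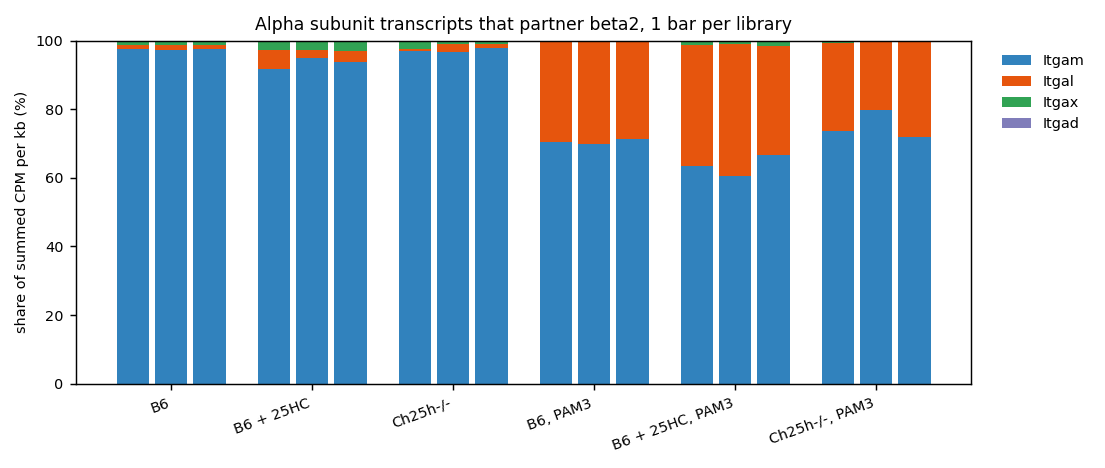
Share (%) of each alpha gene in the summed CPM per kb of Itgam, Itgal, Itgax and Itgad, 1 bar per library in 6 groups of 3. Itgal holds between 20.1 and 38.5% in the libraries with PAM3 and at most 5.45% in those at rest.

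Among the partners of beta1, Itga5, the fibronectin receptor chain, rose with PAM3 from 136, 111 and 109 to 756, 534 and 621 CPM in untreated B6. All stimulated libraries were at least several-fold above the resting ones, and the mean was 5.37-fold higher (log2 fold change 2.42 ± 0.27, edgeR adjusted p = 2.6e-06). In Ch25h-/- cells it rose 4.23-fold, from 87.2, 71.7 and 78.3 to 439, 189 and 376 CPM (2.08 ± 0.27, edgeR adjusted p = 1.1e-05). In 25HC-treated cells, where it was at 600, 324 and 487 CPM at rest, it reached 758, 830 and 688 CPM with PAM3. That smaller rise of 1.61-fold (0.69 ± 0.26, edgeR adjusted p = 0.0320) was lost without resting replicate 2 (0.47, adjusted p = 0.152) or 3 (0.70, 0.0645) or stimulated replicate 1 (0.70, 0.0628) or 2 (0.62, 0.0850). Itga6, a laminin receptor chain, fell in untreated B6 from 290, 244 and 315 to 115, 187 and 144 CPM (-0.93 ± 0.25, edgeR adjusted p = 0.00459). The groups did not overlap. The fall was 5.87-fold in 25HC-treated cells, from 187, 269 and 248 to 33.5, 45.5 and 40.9 CPM (-2.55 ± 0.26, edgeR adjusted p = 1.4e-06).

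In Ch25h-/- cells Itga6 stood at 347, 194 and 384 CPM at rest and at 231, 381 and 286 CPM with PAM3, and these libraries overlapped (log2 fold change -0.04 ± 0.25, edgeR adjusted p = 0.891). Without replicate 2 of every group the difference passed (-0.50, edgeR adjusted p = 0.0233). Itga4, the VCAM-1 receptor chain, showed no call in untreated B6, at 306, 391 and 394 CPM at rest and 440, 283 and 203 CPM with PAM3 (-0.24 ± 0.24, edgeR adjusted p = 0.406). The stimulated libraries spread on both sides of the resting ones, and without the highest, replicate 1, the difference passed (-0.58, edgeR adjusted p = 0.0339). In 25HC-treated cells Itga4 was at 122, 164 and 135 and then 185, 195 and 182 CPM, groups that did not overlap but missed the threshold (0.42 ± 0.24, edgeR adjusted p = 0.150, and 0.0134 with only the compared groups in the fit). In Ch25h-/- cells it fell from 425, 730 and 474 to 349, 289 and 288 CPM (-0.82 ± 0.24, edgeR adjusted p = 0.00841). That call rested on resting replicate 2, the highest library, without which the value was -0.54 (edgeR adjusted p = 0.0584), and it was lost without replicate 2 of every group (-0.50, 0.138).

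Itgb5, which with alphaV forms a vitronectin receptor, was lowered by PAM3 in all 3 arms. In untreated B6 it fell from 216, 311 and 229 to 58.3, 81.1 and 82.3 CPM, a 3.41-fold difference between means with no overlap (log2 fold change -1.77 ± 0.24, edgeR adjusted p = 1.6e-05). The fall was 4.01-fold in 25HC-treated cells (-2.0 ± 0.24, edgeR adjusted p = 5.7e-06) and 3.10-fold in Ch25h-/- cells (-1.63 ± 0.24, edgeR adjusted p = 3.5e-05). Its partner Itgav lay between 78.9 and 197 CPM in the 18 libraries, all groups overlapped their neighbours in the order of means, and its log2 fold changes over the 9 comparisons ran from -0.19 to 0.31 with SE 0.23 between groups. Itgb1, the common beta1 chain, had log2 fold changes between groups from -0.13 to 0.20 with SE 0.17. Neither gene was called in any comparison, which at this spread does not show that they stayed the same. Over the 10 genes PAM3 gave 3 rises and 2 falls in 25HC-treated cells (58.9% of all genes called, 28.5% higher and 30.4% lower) and 4 rises and 3 falls in Ch25h-/- cells (62.0% called, 29.9% higher and 32.1% lower). In each of these 2 arms 6 of the 10 genes had no overlap between rest and PAM3, beside 72.6% of all genes with 25HC and 67.0% in Ch25h-/- cells.

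**Figure D3:**
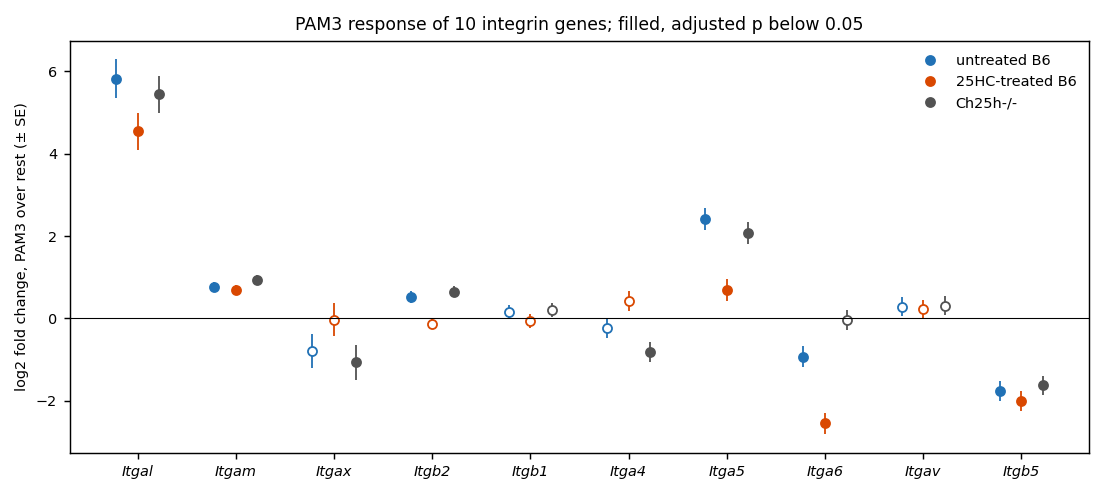
Log2 fold change of PAM3 over rest for each gene, with SE bars, in untreated B6, 25HC-treated B6 and Ch25h-/- cells; filled points have an edgeR adjusted p below 0.05. Itgal lies between 4.54 and 5.82 in the 3 arms. The 25HC-treated point lies below the untreated one for every gene except Itga4 and Itgax.

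The effect of 25HC itself was first compared in resting B6 cells. Itga5 and Itgal rose, and Itga4 and Itgam fell, 4 of 10 genes where 26.2% of all tested genes were called (14.8% higher and 11.4% lower). The groups did not overlap for 5 of the 10, beside 42.4% of all genes. The median absolute log2 fold change was 0.51 over the 10 genes and 0.32 over all genes. Itga5 rose from 136, 111 and 109 to 600, 324 and 487 CPM. Every treated library was above every untreated one, and the mean was 3.96-fold higher (log2 fold change 1.99 ± 0.27, edgeR adjusted p = 2.1e-04). Itga4 moved the other way, from 306, 391 and 394 to 122, 164 and 135 CPM, again without overlap, and was 2.59-fold lower (-1.37 ± 0.24, edgeR adjusted p = 0.00126). The 2 alpha chains that pair with beta1 and bind fibronectin or VCAM-1 thus moved apart in level per kb, from 24.1 ± 3.07 (Itga5) and 26 ± 3.58 (Itga4) to 95.3 ± 28.2 and 10 ± 1.54 CPM per kb. The starting levels depend on the length used. Per kb of the longest transcript the means were 26.9 (Itga5) and 37.2 (Itga4) untreated and 107 and 14.4 with 25HC. Itgb1 itself stood at 913, 595 and 852 and at 904, 780 and 872 CPM, groups that overlapped (0.12 ± 0.17, edgeR adjusted p = 0.645).

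Within the beta2 family, 25HC lowered Itgam at rest from 2040, 1984 and 1905 to 1411, 1469 and 1364 CPM. The groups did not overlap, and the fall was 1.40-fold (log2 fold change -0.48 ± 0.12, edgeR adjusted p = 0.0114, and 0.0564 without treated replicate 3). Of the 12 macrophage markers 2 were higher and 7 lower (median -0.59), their sum was 20701 to 22756 CPM after 25HC against 26613 to 33195 CPM, and their part was not tested. Itgal rose from 37.0, 35.4 and 24.6 to 109, 45.4 and 59.1 CPM, with treated replicate 1 the highest and no overlap (1.14 ± 0.39, edgeR adjusted p = 0.0406). That call was lost without treated replicate 1 (0.69, adjusted p = 0.255) or 3 (1.26, 0.0686) or untreated replicate 1 (1.25, 0.0560), 2 (1.21, 0.0760) or 3 (0.98, 0.138). It was lost too without the filter on low counts (1.08, edgeR adjusted p = 0.0801) and with only the compared groups in the fit (1.13, 0.0592).

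Itgax stood at 38.7, 39.8 and 42.2 CPM after 25HC against 21.9, 24.0 and 22.5 CPM, without overlap and with little spread in either group. The difference of 1.76-fold missed the threshold, where 1 model shared the spread of all 6 groups (log2 fold change 0.82 ± 0.42, edgeR adjusted p = 0.159). It passed with the animal as a block (0.81, edgeR adjusted p = 0.00252) and with only the compared groups in the fit (0.81, 0.0106). Itgb5, at 126, 236 and 157 CPM after 25HC, overlapped the untreated libraries and missed the threshold (-0.54 ± 0.23, edgeR adjusted p = 0.0976). It was lower in 3 of 3 animals and passed with the animal as a block (-0.57, edgeR adjusted p = 0.00340), without treated replicate 2 (-0.84, 0.0144) and without replicate 2 of every group (-0.65, 0.0115). Itga6, at 187, 269 and 248 CPM, overlapped too (-0.27 ± 0.25, edgeR adjusted p = 0.444, and -0.48 with 0.0420 without replicate 2 of every group). Itgb2 stood at 1089, 967 and 1071 CPM and had a log2 fold change of -0.00 ± 0.14 (edgeR adjusted p = 0.998).

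**Figure D4:**
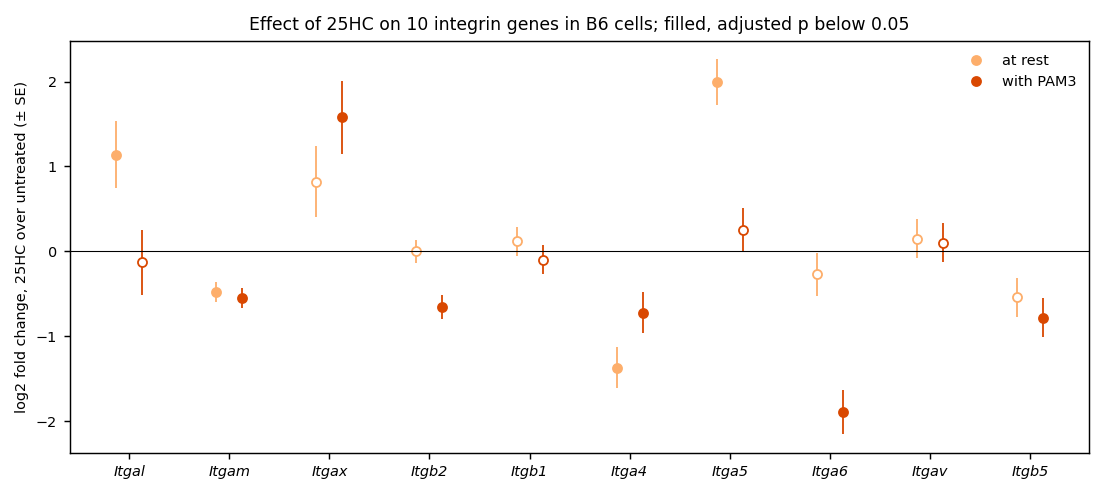
Log2 fold change of 25HC-treated over untreated B6 cells for each gene, with SE bars, at rest and with PAM3; filled points have an edgeR adjusted p below 0.05. Itga5 is at 1.99 at rest and 0.25 with PAM3, Itga6 at -0.27 and -1.89, and Itgam at -0.48 and -0.55.

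With PAM3 present, 25HC lowered Itga6, Itgb2, Itgam, Itga4 and Itgb5 and raised Itgax. These 6 calls compare with 45.1% of all tested genes (21.5% higher and 23.6% lower), the same 6 genes had no overlap beside 58.4% of all genes, and the median absolute log2 fold change was 0.60 against 0.43 over all genes. Itga6 went from 115, 187 and 144 to 33.5, 45.5 and 40.9 CPM. All treated libraries were far below the untreated ones, a 3.72-fold fall (log2 fold change -1.89 ± 0.26, edgeR adjusted p = 3.7e-05). Itgb2 fell from 1418, 1508 and 1560 to 953, 982 and 932 CPM, 1.57-fold lower with no overlap (-0.65 ± 0.14, edgeR adjusted p = 0.00155). Itgam fell 1.47-fold, from 3223, 3689 and 3165 to 2224, 2185 and 2458 CPM, again with no overlap (-0.55 ± 0.12, edgeR adjusted p = 0.00207). Of the 12 macrophage markers 1 was higher and 7 lower (median -0.94), their sum was 28814 to 36138 CPM with 25HC and PAM3 against 43103 to 57035 CPM with PAM3 alone, and their part in these falls was not tested.

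Itgax rose from 15, 10.7 and 14 to 38.0, 32.7 and 48.0 CPM, a 3.00-fold difference without overlap and opposite in direction to its neighbour Itgam (log2 fold change 1.58 ± 0.43, edgeR adjusted p = 0.00686). Summed dendritic cell markers were at 6.80 to 7.32 CPM in these treated libraries against 2.73 to 3.40 CPM in the untreated ones. Of the 9 listed markers 5 were tested, with 2 higher and 2 lower with 25HC. Ccr7 made up most of the treated sum, at 4.70 ± 0.429 against 1.56 ± 0.585 CPM, whereas Zbtb46 was at 0.187 ± 0.0807 against 0.164 ± 0.0580 CPM and Flt3 at 0.0464 ± 0.0236 against 0.114 ± 0.0634 CPM. The part of dendritic cells in the Itgax value was not tested. Itga4 fell from 440, 283 and 203 to 185, 195 and 182 CPM, the highest untreated library standing well apart (-0.72 ± 0.24, edgeR adjusted p = 0.0233). Without that library, replicate 1, the value was -0.38 (edgeR adjusted p = 0.164), and the call was also lost without treated replicate 1 (-0.71, 0.0652) or 3 (-0.70, 0.0679) and with only the compared groups in the fit (-0.71, 0.0523). Itgb5 fell from 58.3, 81.1 and 82.3 to 34.2, 55.0 and 39.9 CPM (-0.78 ± 0.23, edgeR adjusted p = 0.0135). It lost its call without treated replicate 1 (-0.64, edgeR adjusted p = 0.0709) or 3 (-0.73, 0.0530) or untreated replicate 2 (-0.70, 0.0510) or 3 (-0.69, 0.0524). Itgal overlapped between the groups (-0.13 ± 0.38, edgeR adjusted p = 0.801), and so did Itga5 (0.25 ± 0.26, edgeR adjusted p = 0.449).

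Whether the PAM3 response differed with 25HC was tested with an interaction, the log2 response of treated minus that of untreated B6 cells. Itga5, Itga6 and Itgb2 passed, all 3 below 0, where 28.3% of all tested genes passed (12.5% above and 15.8% below 0). For Itga5 the response was 2.42 in untreated and 0.69 in treated cells, a difference of -1.73 ± 0.37 (edgeR adjusted p = 0.00412). For Itga6 it was -0.93 and -2.55, a difference of -1.62 ± 0.35 (edgeR adjusted p = 0.00479). For Itgb2 it was 0.52 and -0.13, a difference of -0.64 ± 0.20 (edgeR adjusted p = 0.0248). The Itgb2 call was lost without any filter on low counts (-0.58, edgeR adjusted p = 0.0754). It was also lost, at adjusted p between 0.0517 and 0.0626, without replicate 1 or 3 of either 25HC-treated group, replicate 2 or 3 of untreated B6 with PAM3 or replicate 3 of untreated B6 at rest, taken singly. For Itgal the difference of -1.27 ± 0.54 missed the threshold (edgeR adjusted p = 0.0879) and passed with only the compared groups in the fit (-1.27, 0.0283) or without replicate 2 of every group (-1.55, 0.0201).

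Itgax also missed it (0.76 ± 0.59, edgeR adjusted p = 0.342) but passed with the animal as a block (0.77, 0.0198) and with only the compared groups (0.77, 0.0231). Itga4 passed without replicate 1 of untreated B6 with PAM3 (1.00, edgeR adjusted p = 0.0174, against 0.65 ± 0.34 and 0.159 with all libraries). For Itgam the response was 0.77 and 0.69, with a difference of -0.07 ± 0.18 (edgeR adjusted p = 0.788). Within the beta2 family, PAM3 thus raised Itgam with and without 25HC, whereas the response of Itgb2 was lower with 25HC by the test of the difference.

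Loss of Ch25h was examined last, and 0 of the 10 genes were called in it. At rest 0.00785% of all tested genes passed edgeR's test. Of all 12741 genes 704 had an unadjusted p below 0.05, 10.2% had no overlap and 20 passed the DESeq2 Wald test. Of the 10 genes 0 passed the DESeq2 Wald test, and 2 had both an unadjusted p below 0.05 and no overlap. Those were Itga4, higher in Ch25h-/- cells at 425, 730 and 474 against 306, 391 and 394 CPM (log2 fold change 0.58 ± 0.24, edgeR adjusted p = 0.859), and Itga5, lower at 87.2, 71.7 and 78.3 against 136, 111 and 109 CPM (-0.59 ± 0.26, edgeR adjusted p = 0.890). With PAM3 0.173% of all genes passed (0.0471% higher and 0.126% lower). Of all 12741 genes 1784 had an unadjusted p below 0.05, 20.4% had no overlap and 392 passed the DESeq2 Wald test. Of the 10 genes 3 had an unadjusted p below 0.05 and no overlap, and the same 3 passed the DESeq2 Wald test. Itga6 stood at 231, 381 and 286 CPM in Ch25h-/- cells against 115, 187 and 144 CPM in B6, a 2.01-fold difference without overlap that edgeR did not call (1.01 ± 0.25, edgeR adjusted p = 0.0928, DESeq2 adjusted p = 0.00710). Itga5 stood at 439, 189 and 376 against 756, 534 and 621 CPM, 1.90-fold lower without overlap (-0.93 ± 0.26, edgeR adjusted p = 0.118, DESeq2 adjusted p = 0.0310). Itgam stood at 3718, 4997 and 4065 against 3223, 3689 and 3165 CPM (0.34 ± 0.12, edgeR adjusted p = 0.212, DESeq2 adjusted p = 0.0491).

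Itga5 and Itga6 also passed edgeR without stimulated Ch25h-/- replicate 1 (-1.18 with adjusted p = 0.0473 and 1.16 with 0.0412) and without replicate 2 of every group (-0.76 with 0.0304 and 1.00 with 0.0184). The summed neutrophil markers were higher in every Ch25h-/- library than in any B6 library, at 11.3 to 89.6 CPM against at most 9.56 CPM. Of the 10 listed markers 5 were tested, and 0 were called in Ch25h-/- against B6 at rest or with PAM3. Only S100a8 had a mean of at least 5 CPM in Ch25h-/- cells with PAM3. The part of neutrophils in the differences of the integrin genes was not tested. With PAM3, Itga6 had means of 299 ± 75.8 CPM in Ch25h-/-, 149 ± 35.8 in B6 and 39.9 ± 6.03 CPM in 25HC-treated B6 cells, and Itga5 335 ± 130, 637 ± 112 and 759 ± 71.1 CPM. The comparisons with genotype and with 25HC share the untreated B6 libraries. An interaction of PAM3 with genotype was called by edgeR for 0 of the 10 genes (0% of all genes passed), which does not show equal responses. Of the 10, 1 gene, Itga6, had an unadjusted p below 0.05 in edgeR (0.89 ± 0.35), beside 598 of all 12741 genes. The DESeq2 Wald test called 2 genes of all tested in this interaction.

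Other subunits were read for context from a list of 16, of which 10 passed the filter on low counts. With PAM3 in untreated B6 cells 3 of these 10 rose and 5 fell, with a median log2 fold change of -1.08 against 0.00 over all genes, of which 62.1% were called, 31.3% higher and 30.8% lower. Itgb3, an alternative partner of Itgav in the vitronectin receptor of osteoclasts, fell from 22.7, 26.6 and 21.5 to 0.204, 0.462 and 0.253 CPM (log2 fold change -6.11 ± 0.36, edgeR adjusted p = 5.5e-09). Itgb5 and Itgb3, both partners of Itgav, thus fell with PAM3 where Itgav was not called. Osteoclast markers were mixed in the same comparison, with 2 of 5 tested members higher, 2 lower and a median log2 fold change of -0.67. Their sum was 163 to 293 CPM with PAM3 against 57.9 to 86.1 CPM at rest, while Dcstamp, a fusion receptor of osteoclasts, went from 2.36 ± 0.492 to 0.123 ± 0.0493 CPM. The part of such cells in the Itgb3 value was not tested. Itgb8, another partner of Itgav that activates latent TGF-beta, had 2, 5 and 2 counts in the resting libraries and rose to 16.2, 4.64 and 4.95 CPM (7.12 ± 0.80, edgeR adjusted p = 2.8e-06). With 25HC as well it reached 60.7, 33.4 and 58.1 CPM, all above the libraries with PAM3 alone (2.57 ± 0.52, edgeR adjusted p = 9.5e-04). Replicate 1 of untreated B6 with PAM3 was the highest of its group, and without it these log2 values were 6.29 for PAM3 and 3.40 for 25HC.

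Itgb7, which pairs with Itga4 in the gut-homing integrin, fell with PAM3 from 47.3, 56.6 and 53.8 to 6.16, 5.06 and 7.96 CPM (log2 fold change -3.05 ± 0.26, edgeR adjusted p = 1.5e-07). With 25HC and PAM3 it stood at 21.3, 13.9 and 23.2 CPM, above every library with PAM3 alone (1.61 ± 0.24, edgeR adjusted p = 9.0e-05), while Itga4 was lower in the same comparison. The PAM3 response differed with 25HC for Itgb7 (1.68 ± 0.34, edgeR adjusted p = 0.00299) and for Itgb3 (1.58 ± 0.45, edgeR adjusted p = 0.0175, and 2.36 without replicate 2 of every group). Itga9, a receptor chain for tenascin and osteopontin, rose from 29.4 ± 2.96 to 70.3 ± 19.4 CPM with PAM3 (1.26 ± 0.29, edgeR adjusted p = 0.00147). The rest of the calls with PAM3 in untreated B6 were Itga10, higher, and Itga3, Itga8 and Itgad, lower, with means of at most 5.77 CPM. With 25HC in stimulated cells Itgb7, Itgb8 and Itga1 rose and Itga8 fell, and at rest Itgb3 fell (-0.82 ± 0.27, edgeR adjusted p = 0.0386), a call lost without any of 5 of the 6 libraries singly.

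**Figure D5:**
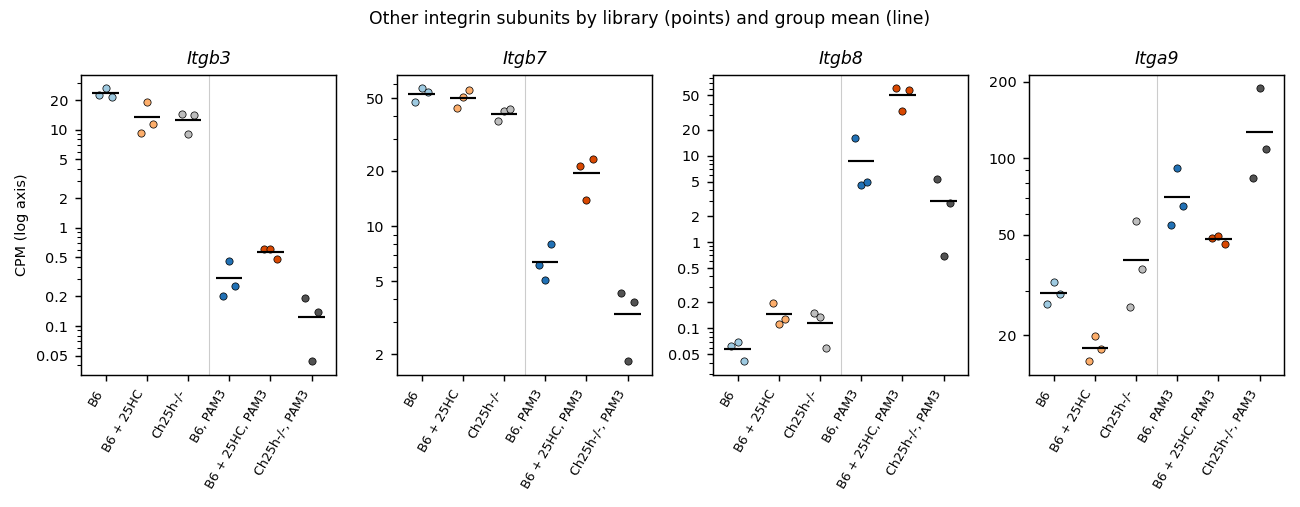
Levels of Itgb3, Itgb7, Itgb8 and Itga9 in CPM (log axis, separate scales), 1 point per library and a line at each group mean, with rest left and PAM3 right of the grey line. Itgb3 lies between 9.12 and 26.6 CPM at rest and below 1 CPM with PAM3, and Itgb8 is highest in the 25HC-treated cells with PAM3.

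Genes that act on integrin activation from inside the cell, activators and inhibitors such as Rasa3 together, were counted over a list of 18 tested members. With PAM3 in untreated B6 cells 8 rose and 4 fell (median log2 fold change 0.27), and with 25HC in stimulated cells 1 rose and 9 fell (median -0.44 against -0.04 over all genes). Over all tested genes 62.1% were called in the first of these comparisons (31.3% higher and 30.8% lower). In the second 45.1% were called (21.5% higher and 23.6% lower). The counts of this list in either direction are not far from the shares called. By direction, falls outnumbered rises with 25HC more than over all genes. Rasa3 is among these falls, so they do not count activators alone. Fyb, an adaptor in the pathway from receptors to LFA-1, rose with PAM3 from 440 ± 43.0 to 828 ± 127 CPM (0.91 ± 0.12, edgeR adjusted p = 1.6e-05). Rasa3, which switches off the small GTPase Rap1, fell from 192 ± 3.16 to 107 ± 14.1 CPM with PAM3 and to 39.3 ± 2.07 CPM with 25HC and PAM3. Tln1, the talin that binds beta tails, had an interaction of -1.17 ± 0.23 (edgeR adjusted p = 0.00262), the same sign as Itgb2. Among 38 tested genes of the adhesion complex and of signalling from bound integrins 17 rose and 15 fell with PAM3 (over all genes 31.3% and 30.8%), and 7 rose and 14 fell with 25HC in stimulated cells (over all genes 21.5% and 23.6%).

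Of 22 tested ligand genes 4 rose and 8 fell with PAM3 in untreated B6 cells, where 62.1% of all genes were called (31.3% higher and 30.8% lower). Icam1, the main ligand of LFA-1, rose from 126 ± 22.1 to 306 ± 20.8 CPM (1.29 ± 0.21, edgeR adjusted p = 6.9e-05), while Icam2, another LFA-1 ligand, fell from 12.5 ± 0.783 to 4.73 ± 0.795 CPM (-1.40 ± 0.24, edgeR adjusted p = 1.2e-04). With 25HC in stimulated cells, where 45.1% of all genes were called (21.5% higher and 23.6% lower), 4 ligand genes rose and 4 fell. Among them Edil3, a ligand of alphaV integrins on dying cells, rose from 5.01 ± 1.48 to 36.9 ± 13.1 CPM (2.89 ± 0.30, edgeR adjusted p = 4.4e-06). Of 17 tested tetraspanins and membrane partners 8 rose and 4 fell in that comparison (over all genes 21.5% and 23.6%). Plaur, the urokinase receptor that associates with Mac-1, rose from 19.7 ± 8.27 to 246 ± 37.8 CPM (3.65 ± 0.40, edgeR adjusted p = 7.0e-06). Slc3a2, the CD98 heavy chain that binds beta1 tails, rose from 292 ± 26.3 to 717 ± 34.8 CPM (1.30 ± 0.14, edgeR adjusted p = 4.5e-06).

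The genes whose pattern was most like each member's were found by the root mean square difference of log2 CPM over the 18 libraries, after centring each gene, among 9329 genes with a mean of at least 5 CPM. Low values mean a similar course, and they are read beside how much the member itself varied. Itgb5 had Rgs10 at 0.17, Ttc38 at 0.20 and B3gnt8 at 0.21, where its own variation was 1.01. Itga6 had Paqr4 at 0.28, Lrmp at 0.31 and Nfatc2 at 0.36 (own variation 1.07), and Itga5 had Trim46 at 0.35, Nupr1 at 0.36 and Ppapdc1b at 0.37 (1.25). Itgal, the most variable, had Fpr2 at 0.53, Sod2 at 0.60 and Bcl2a1d at 0.64 (2.74). Itga4 had Dse at 0.30 and Fchsd2 at 0.33 (0.68), Itgam had Wdfy3 at 0.15 and Atp2c1 at 0.16 (0.52), and Itgax had Pls3 at 0.39 and, at 0.42, Frrs1 and Lamc1 (0.85). Itgb1 (Snx12 at 0.09, own variation 0.20), Itgb2 (Bag1 at 0.09, 0.31) and Itgav (Atrn at 0.17, 0.32) varied little. Among the 10 genes the closest pair was Itgav and Itgb1 at 0.21, then Itgb1 and Itgb2 at 0.26, and Itgam was at 0.40 from its partner Itgb2.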

How the data were processed

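The authors deposited raw read counts per gene, for 18 libraries, all analysed. Alignment was to GRCm38 (mm10) with GSNAP, per the submitters' processing notes, and counting with featureCounts of Subread 1.5.2. The strand setting and the treatment of multi-mapping reads were not given in the sources used here. Counts were fitted with edgeR 4.0.16 (limma 3.58.1, R 4.3.3): filterByExpr over 6 groups, TMM factors, 1 mean per group, two-sided quasi-likelihood F tests with robust dispersion, and Benjamini-Hochberg adjustment over 12741 genes, with calls at an adjusted p below 0.05. The biological coefficient of variation was 0.192 with 12 residual degrees of freedom. SE was derived as |log2 fold change| over the root of F. CPM used TMM-scaled totals, and CPM per kb divided by the union exon length in GENCODE M21. The script was tested on simulated data, and no duplicate libraries were found.

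All 10 members are reported in each comparison. Of the 5 related lists, the rule named up to 3 genes per comparison with the smallest adjusted p and a mean of at least 5 CPM, and the text gives a part of these. Itgb3, Itgad and Ch25h were named whatever their values, and Itga1, Itga3, Itga8, Itga10 and the single cell-type markers were chosen after their values were seen. The members and lists were chosen with earlier results of these data known. Nothing in the labels says whether libraries came from separate cultures beyond the mouse number, so p-values measure the spread between these libraries.

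Within a genotype, equal mouse numbers name the same animal in the labels. Deviations of equally numbered libraries correlated with r between -0.162 and 0.581 over the 5 such comparisons. The main model had no block, and a fit with the animal as a block was an alternative. Others were DESeq2 1.42.0 size factors and Wald test, no filter and a stricter filter, only the compared groups, each library left out and replicate 2 left out of every group.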

Additional observations from a re-analysis of the deposited data

Results flagged for a closer look

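The response to PAM3 differed between 25HC-treated and untreated B6 cells, by a test of the difference itself (edgeR interaction term), for 3 of the 10 integrin genes: Itga5 (-1.73 on the log2 scale), Itga6 (-1.62) and Itgb2 (-0.64). Over all tested genes 28.3% passed, a share near that of the 10 genes. The Itgb2 call was lost without the filter on low counts and without any of several single libraries, as given above. Among the subunits read for context the same test passed for Itgb3 (1.58) and Itgb7 (1.68), and for Itga1 (2.19), whose mean was 3.96 CPM or less in all groups compared. Itgb3 had between 8 and 65 counts per library in untreated B6 cells with PAM3, so its value rests on few counts there. The cause of these differences was not tested.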

How the results depend on the processing

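Over 90 pairs of gene and comparison, leaving out 1 library gave 660 values, of which 627 kept their side of the threshold, 28 lost a call and 5 gained one. The other settings gave 630 values, of which 602 kept their side, 8 lost a call and 20 gained one. With a call 0 values changed direction, but some values without a call did. Itgal in Ch25h-/- against B6 at rest went from 0.36 to -0.31 without resting Ch25h-/- replicate 2. Itgax in the same comparison went from 0.31 to -0.30 without resting Ch25h-/- replicate 1. Each loss and gain stands beside its gene above, except those with the mouse number as a block, which follow. The number of the 10 genes called with 25HC at rest ran from 2 to 5 with 1 library left out. In the comparison of Ch25h-/- with B6 with PAM3 it was 3 by the DESeq2 Wald test, 2 without replicate 2 of every group and 0 to 2 with 1 library left out, and the 25HC interaction had 5 with only the compared groups in the fit.

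Across genotypes, equal mouse numbers do not name the same animal, and libraries of equal number correlated with r = 0.574, 0.705 and 0.327 at rest and 0.322, 0.459 and 0.0949 with PAM3. Within a genotype, where equal numbers name the same animal, r ran from -0.162 to 0.581. What libraries of equal number share across genotypes was not tested. With that number as a replicate block 2 of the 10 genes were called with PAM3 (Itga5, adjusted p = 0.0238, and Itga6, 0.0420), and over all genes 368 with PAM3 and 14 at rest. With the animal as a block within a genotype the calls gained are those given above for Itgax and Itgb5.

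Over all genes, calls with 25HC at rest (3334) ran from 1524 to 3801 with 1 library left out and were 5103 without replicate 2 of every group. For Ch25h-/- against B6 at rest (1 gene) they were 20 by DESeq2, 0 with only the compared groups, 0 to 4 with 1 library left out and 2 without replicate 2 of every group. With PAM3 (22 genes) they were 392 by DESeq2, 13 with no filter, 0 with only the compared groups, 1 to 254 with 1 library left out and 384 without replicate 2 of every group. For the interaction with 25HC (3611) they ran from 2288 to 4481 with 1 library left out, and for that with genotype DESeq2 called 2. The cause of these changes was not tested. Where libraries were left out the fit also held fewer of them, and the counts fell in some cases and rose in others. Depth limits Itgb8 at rest, with at most 5 counts per library.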
